A study of Mus musculus with 6 samples.

Results

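The 10 genes Cd14, Ly96, Myd88, Ticam1, Ticam2, Tirap, Irak1, Irak3, Irak4 and Traf6 encode the co-receptors, adaptors and kinases that carry signals from Toll-like receptors (TLRs). They were taken by symbol from a table of 55335 genes, in which each occurs once. No measured value entered the rule, but earlier results of these data were known when the genes were chosen. The samples were cultures of bone marrow-derived macrophages, grown for 6 days from marrow of male wildtype C57BL/6 mice aged 6 to 8 weeks. In the CM + 4OI group, 3 cultures received, for 4 h, conditioned medium mixed 1:1 and 4-octyl itaconate (4OI) at 200 µM, an ester of the macrophage metabolite itaconate that enters cells. In the CM group, 3 cultures received the same conditioned medium for 4 h without 4OI. The medium came from pancreatic acinar cells that had been exposed to 200 nM caerulein, a peptide used to model acute pancreatitis, for 5 h. Every culture had thus met the medium, and macrophages without it were not analysed here.

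TLRs are receptors of the innate immune system that bind microbial molecules and, in damaged tissue, are reported to respond to molecules of injured cells. CD14 delivers lipopolysaccharide to the complex of TLR4 and MD-2, the protein encoded by Ly96. The adaptor MyD88, bridged to TLR4 by TIRAP, assembles the kinases IRAK4 and IRAK1 and the ubiquitin ligase TRAF6, which leads to NF-kB and MAP kinase activation. The adaptor TRIF, encoded by Ticam1 and bridged to TLR4 by TRAM, encoded by Ticam2, leads to interferon regulatory factors. Irak3 encodes IRAK-M, which restrains the MyD88 branch in macrophages.

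With 4OI added, Myd88 fell by 40.3% and Ticam2 fell by 40.9%, while Irak1 was 38.0% and Tirap 16.4% higher by mean FPKM (fragments scaled to transcript length and library size). Cd14, Ly96, Ticam1, Irak4 and Traf6 were not called, and Irak3, at 0.634 times its CM mean, missed the threshold at an adjusted p of 0.0539. Of the 10 genes, 2 were thus called higher and 2 lower by limma on log2(FPKM + 1), at a Benjamini-Hochberg adjusted p under 0.05 over all 10468 tested genes. Over all tested genes 19.3% were called higher, 13.2% lower and 32.5% in either direction, so the share among these 10 was close to the background. The median log2 fold change of the 10 genes was 0.04, and that of all tested genes was 0.06. The groups did not overlap in 5 of the 10 genes and in 49% of all tested genes. Of the genes called over the whole table, 59.3% were higher as deposited and 44.7% with median-of-ratios scaling. Under that scaling and under quantile normalization, neither Irak1 nor Tirap was called.

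**Figure D1:**
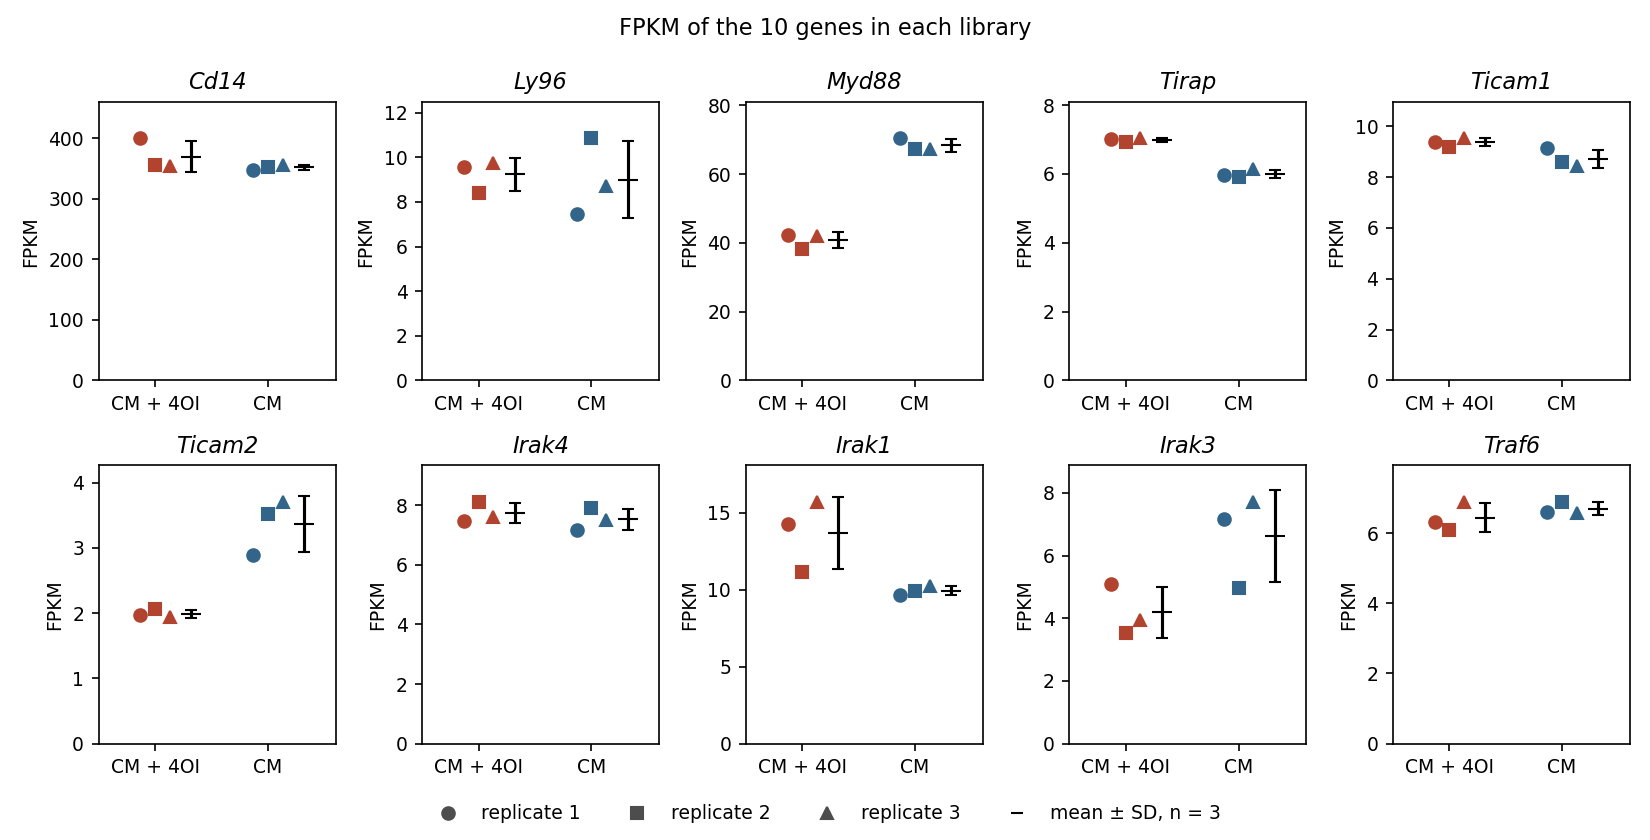
FPKM (vertical axes, starting at 0) of each gene in the 3 CM + 4OI libraries (left, red) and the 3 CM libraries (right, blue), with the marker shape giving the replicate number and black bars the mean ± SD. All 3 CM + 4OI values lie below all CM values for Myd88 and Ticam2, and above them for Tirap, Irak1 and Ticam1.

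The bases upstream of a transcription start listed by RefSeq are shown for the called genes with an entry in its promoter table. They are shown because these genes moved in different directions. Ticam2, also called lower, had no entry, so Myd88 is the only gene shown that was called lower. Of the 10 genes, 7 had an entry (assembly GRCm38.p6, the same build as mm10). The stretches are the longest run without an annotated exon within the 250 bases before the start, read 5′ to 3′ on the strand of the gene. They are chr9:119340042-119340268 for Myd88, chr9:35199989-35200164 for Tirap and chrX:74023937-74024171 for Irak1, all on the minus strand. The Myd88 and Tirap stretches lie inside the annotated spans of their genes, which reach further upstream, to 119341411 and 35200291. The bases before those upstream ends were not searched. Capitals mark matches to the motifs searched, of which the Tirap and Irak1 stretches hold none.
Myd88: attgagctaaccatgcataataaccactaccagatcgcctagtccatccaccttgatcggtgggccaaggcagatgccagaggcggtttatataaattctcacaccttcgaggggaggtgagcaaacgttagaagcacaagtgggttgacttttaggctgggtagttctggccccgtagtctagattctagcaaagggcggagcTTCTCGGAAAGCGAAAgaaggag
Tirap: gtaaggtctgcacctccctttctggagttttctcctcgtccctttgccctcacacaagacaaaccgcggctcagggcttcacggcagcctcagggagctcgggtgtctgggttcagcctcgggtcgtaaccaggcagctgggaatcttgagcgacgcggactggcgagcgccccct
Irak1: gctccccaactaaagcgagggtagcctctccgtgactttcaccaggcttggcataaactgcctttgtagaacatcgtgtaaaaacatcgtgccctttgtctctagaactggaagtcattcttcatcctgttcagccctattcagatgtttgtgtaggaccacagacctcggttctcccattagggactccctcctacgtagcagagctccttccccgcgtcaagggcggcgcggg
The Myd88 stretch held a match to the core of the interferon-stimulated response element (GAAA, any 2 bases, GAAA) from 40 to 31 bases before the start, and an overlapping match to the gamma-activated sequence, TTCNNNGAA, from 46 to 38 bases before it. On both strands, 2.98% of the 32851 promoters in the table held the first motif in their 250 bases and 7.02% the second. Neither motif was found in the 250 bases of any of the other 6 genes with an entry. The antioxidant response element core, TGACNNNGC, was matched in Irak4 and in 10.2% of all promoters, and an NF-kB consensus in Irak1, outside the printed stretch, and in 7.25% of all promoters. The AP-1 motif TGANTCA, present in 6.75% of all promoters, was matched in none of the 7 genes. These are matches of letters, and binding was not measured.

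Cd14 was the most abundant of the 10 transcripts. This gene (ENSMUSG00000051439, chromosome 18, 36725067 to 36726798, minus strand, mm10) had 400.1, 356 and 354 FPKM in the CM + 4OI libraries of replicates 1, 2 and 3, against 348, 353 and 356 FPKM in the CM libraries. The groups overlapped, and replicate 1 with 4OI stood above the other 5 libraries. Its log2 fold change was 0.07 with a 95% confidence interval of -0.07 to 0.20 (limma adjusted p = 0.402). Ly96 (ENSMUSG00000025779, chromosome 1, 16688051 to 16709611, plus strand) had 9.55, 8.40 and 9.76 FPKM in CM + 4OI libraries, against 7.44, 10.9 and 8.72 FPKM in CM libraries. Here the 2 extremes were both CM libraries, and the interval of its log2 fold change, -0.26 to 0.35, was the widest among the co-receptors and adaptors (limma adjusted p = 0.821). The ratio of Cd14 to Ly96 FPKM was 36.3 to 42.3 in CM + 4OI libraries and 32.5 to 46.8 in CM libraries. In these bulk samples, fewer cells of a type and less RNA per cell cannot be told apart.

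Myd88 had the lowest log2 fold change of the 10 genes. The gene of this central adaptor (ENSMUSG00000032508, chromosome 9, 119335934 to 119341411, minus strand) had 42.3, 38.2 and 42.0 FPKM with 4OI, against 70.5, 67.4 and 67.3 FPKM in CM. The groups lay far apart compared with their spread, at 40.8 ± 2.27 FPKM in CM + 4OI and 68.4 ± 1.81 FPKM in CM (means ± SD of 3 libraries per group, as in all such pairs). Its log2 fold change was -0.73 with a standard error (SE) of 0.051 (limma adjusted p = 1.54e-04), and 3.82% of all tested genes had a lower one. It stayed called in all 16 alternatives, between -0.81 and -0.67. The exons of Acaa1a, a peroxisomal thiolase gene on the other strand, cover 11.3% of the Myd88 exon length. Acaa1a was itself lower, at 14.1 ± 0.956 FPKM in CM + 4OI and 19.2 ± 2.09 FPKM in CM (limma adjusted p = 0.0137), and without a stated strand setting reads over the shared bases cannot be assigned.

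Tirap, the gene of the adaptor that brings MyD88 to the membrane (ENSMUSG00000032041, chromosome 9, 35184551 to 35200291, minus strand), moved the other way by a small amount. It had 7.003, 6.92 and 7.04 FPKM with 4OI, against 5.96, 5.90 and 6.14 FPKM in CM. The groups did not overlap and each was tight, and the log2 fold change was 0.19 with an SE of 0.042 (limma adjusted p = 0.0160). It passed the threshold in 12 of 16 alternatives. In the others its adjusted p was 0.0971 with median-of-ratios scaling, 0.0599 with quantile normalization, 0.108 with both replicate 2 libraries left out and 0.0578 without CM + 4OI replicate 3. Gm39318, on the other strand, covers 9.05% of the Tirap exon length and was not analysed here.

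Ticam2 fell in the TRIF branch. The gene of the bridging adaptor TRAM (ENSMUSG00000056130, chromosome 18, 46557291 to 46574533, minus strand) was the lowest of the 10 in level, with 1.97, 2.06 and 1.94 FPKM with 4OI, against 2.88, 3.51 and 3.71 FPKM in CM. The CM + 4OI libraries lay close together, and all were below the lowest CM library. Means were 1.99 ± 0.0589 FPKM in CM + 4OI and 3.37 ± 0.431 FPKM in CM, and the log2 fold change was -0.54 with an SE of 0.084 (limma adjusted p = 0.00382). At these levels the pseudocount matters, and with 0.1 in place of 1 the log2 fold change was -0.72. Ticam2 stayed called in all 15 alternatives in which it was tested. Tmed7, its neighbour on the same strand, encodes a cargo receptor of the early secretory pathway and shares 14.5% of the Ticam2 exon length. Tmed7 had 24.0 ± 0.466 FPKM in CM + 4OI and 22.6 ± 0.235 FPKM in CM (limma adjusted p = 0.131). It was thus far more abundant than Ticam2, and reads over the shared bases cannot be assigned by strand.

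Ticam1, the gene of TRIF itself (ENSMUSG00000047123, chromosome 17, 56269319 to 56276786, minus strand), had 9.39, 9.20 and 9.53 FPKM with 4OI, against 9.12, 8.59 and 8.44 FPKM in CM. The groups did not overlap, but the gap was narrow, and the gene was not called. Its log2 fold change was 0.09 with an interval of -0.02 to 0.21 (limma adjusted p = 0.170). This gene has a single annotated transcript, and its FPKM stood for about 605 to 712 fragments in the CM + 4OI libraries and 454 to 630 in the CM libraries. The ratio of Ticam1 to Ticam2 FPKM was 4.47 to 4.90 in CM + 4OI libraries, against 2.28 to 3.16 in CM libraries.

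Myd88 was the most abundant of the 4 adaptor transcripts in every library. Its share of their summed FPKM was 67.8 to 69.7% in CM + 4OI libraries, against 78.6 to 79.7% in CM libraries. The share of Ticam1 was 15.5 to 16.3% with 4OI and 9.87 to 10.3% in CM, and that of Tirap 11.5 to 12.3% with 4OI and 6.74 to 7.17% in CM. These shares restate the levels above and add no separate evidence.

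Among the kinases, Irak1 was higher and Irak4 was not called. Irak1, whose kinase is activated in the MyD88 complex (ENSMUSG00000031392, chromosome X, 74013914 to 74023918, minus strand), had 14.2, 11.1 and 15.7 FPKM with 4OI, against 9.66, 9.92 and 10.2 FPKM in CM. The groups did not overlap, although replicate 2 with 4OI lay near the CM libraries and the spread was wider with 4OI, at 13.7 ± 2.33 FPKM in CM + 4OI and 9.93 ± 0.277 FPKM in CM. Its log2 fold change was 0.42 with an SE of 0.12 (limma adjusted p = 0.0348). It missed the threshold in 8 of 16 alternatives, at 0.0632 with quantile normalization to 0.0966 when CM + 4OI replicate 1 was left out. It was also lost without CM + 4OI replicate 3 (0.0832) and without CM replicate 1, 2 or 3 (0.0941, 0.0758 and 0.0788).

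Irak3, the gene of the inhibitory family member IRAK-M (ENSMUSG00000020227, chromosome 10, 120141648 to 120202130, minus strand), had 5.10, 3.53 and 3.95 FPKM with 4OI, against 7.17, 4.96 and 7.72 FPKM in CM. The groups overlapped, because replicate 2 was lowest in both, but each CM + 4OI library lay below the CM library of the same number. With a log2 fold change of -0.54 and an SE of 0.17, the limma adjusted p was 0.0539, and it was 0.0162 with the replicate number as a block. It was also under the threshold without CM replicate 2 (0.0139), without CM + 4OI replicate 1 (0.0429), with both replicate 2 libraries left out (0.0304), with FPKM rescaled to TPM (0.0479) and with the filter raised to a mean of 5 FPKM (0.0460). In the other 10 alternatives it was over the threshold, among them 0.1499 without CM + 4OI replicate 2, 0.136 without CM + 4OI replicate 3, 0.144 without CM replicate 1, 0.148 without CM replicate 3 and 0.1445 with no filter on low values. The exons of Tmbim4 on the other strand cover 5.22% of the Irak3 exon length, and Tmbim4 had 13.2 ± 0.528 FPKM in CM + 4OI and 13.9 ± 0.638 FPKM in CM (limma adjusted p = 0.333). The ratio of Irak1 to Irak3 FPKM was 2.79 to 3.98 in CM + 4OI libraries, against 1.32 to 2.001 in CM libraries.

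Irak4, the kinase that starts the IRAK cascade (ENSMUSG00000059883, chromosome 15, 94543643 to 94581815, plus strand), had 7.49, 8.13 and 7.62 FPKM with 4OI, against 7.17, 7.90 and 7.52 FPKM in CM. The groups overlapped, and the interval of the log2 fold change, -0.09 to 0.17, spans 0 (limma adjusted p = 0.651). Twf1, on the other strand over 7.87% of the Irak4 exon length, was higher, at 50.7 ± 0.764 FPKM in CM + 4OI and 40.7 ± 2.53 FPKM in CM (limma adjusted p = 0.00518). Traf6, the ubiquitin ligase downstream of the IRAKs (ENSMUSG00000027164, chromosome 2, 101678429 to 101701669, plus strand), had 6.32, 6.09 and 6.89 FPKM with 4OI, against 6.61, 6.90 and 6.57 FPKM in CM. These groups overlapped as well, with an interval of -0.19 to 0.08 around a log2 fold change of -0.05 (limma adjusted p = 0.536).

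**Figure D2:**
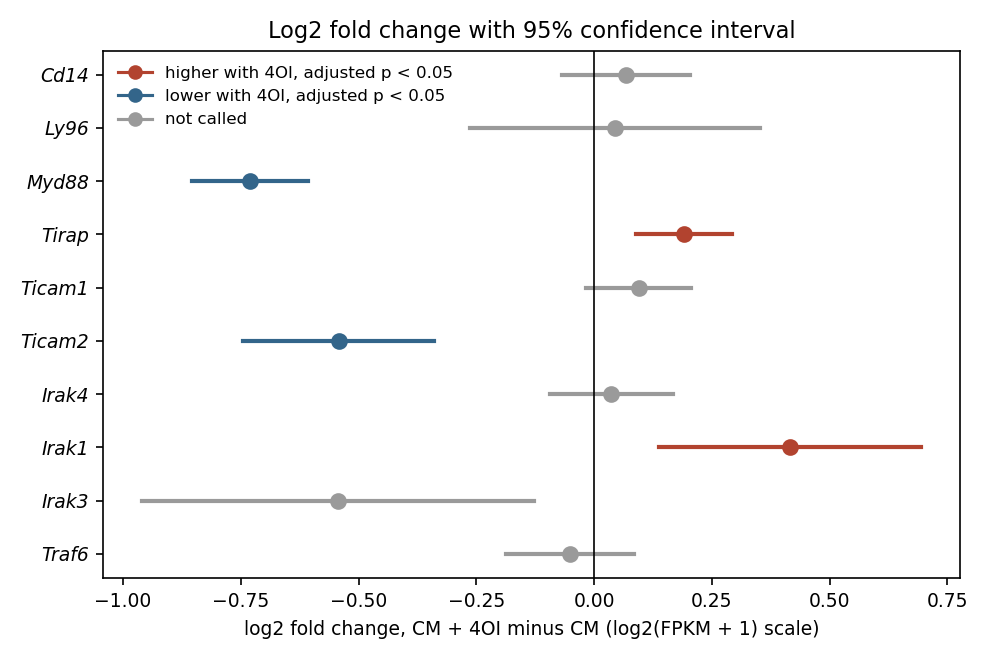
Log2 fold change of each gene (horizontal axis, CM + 4OI minus CM on the log2(FPKM + 1) scale) with its 95% confidence interval from limma (lines), red where called higher, blue where called lower and grey where not called. Myd88 at -0.73 and Ticam2 at -0.54 lie left of 0 and Irak1 at 0.42 and Tirap at 0.19 right of it, while the interval of Irak3 excludes 0 before adjustment only.

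By level per transcript length, Cd14 and Myd88 stood above the other 8 genes in both groups. In the CM + 4OI group the order was Cd14, Myd88, Irak1, Ticam1, Ly96, Irak4, Tirap, Traf6, Irak3 and Ticam2, and among neighbours only the values of Ticam1 and Ly96 overlapped. In the CM group the order was Cd14, Myd88, Irak1, Ly96, Ticam1, Irak4, Traf6, Irak3, Tirap and Ticam2. There the values of Irak1 overlapped those of Ly96, those of Ly96 overlapped Ticam1, and those of Irak3 overlapped both Traf6 and Tirap. Tirap thus stood seventh with 4OI and ninth in CM, and the means from Ticam1 down to Irak3 lay between 4.20 and 9.37 FPKM with 4OI.

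**Figure D3:**
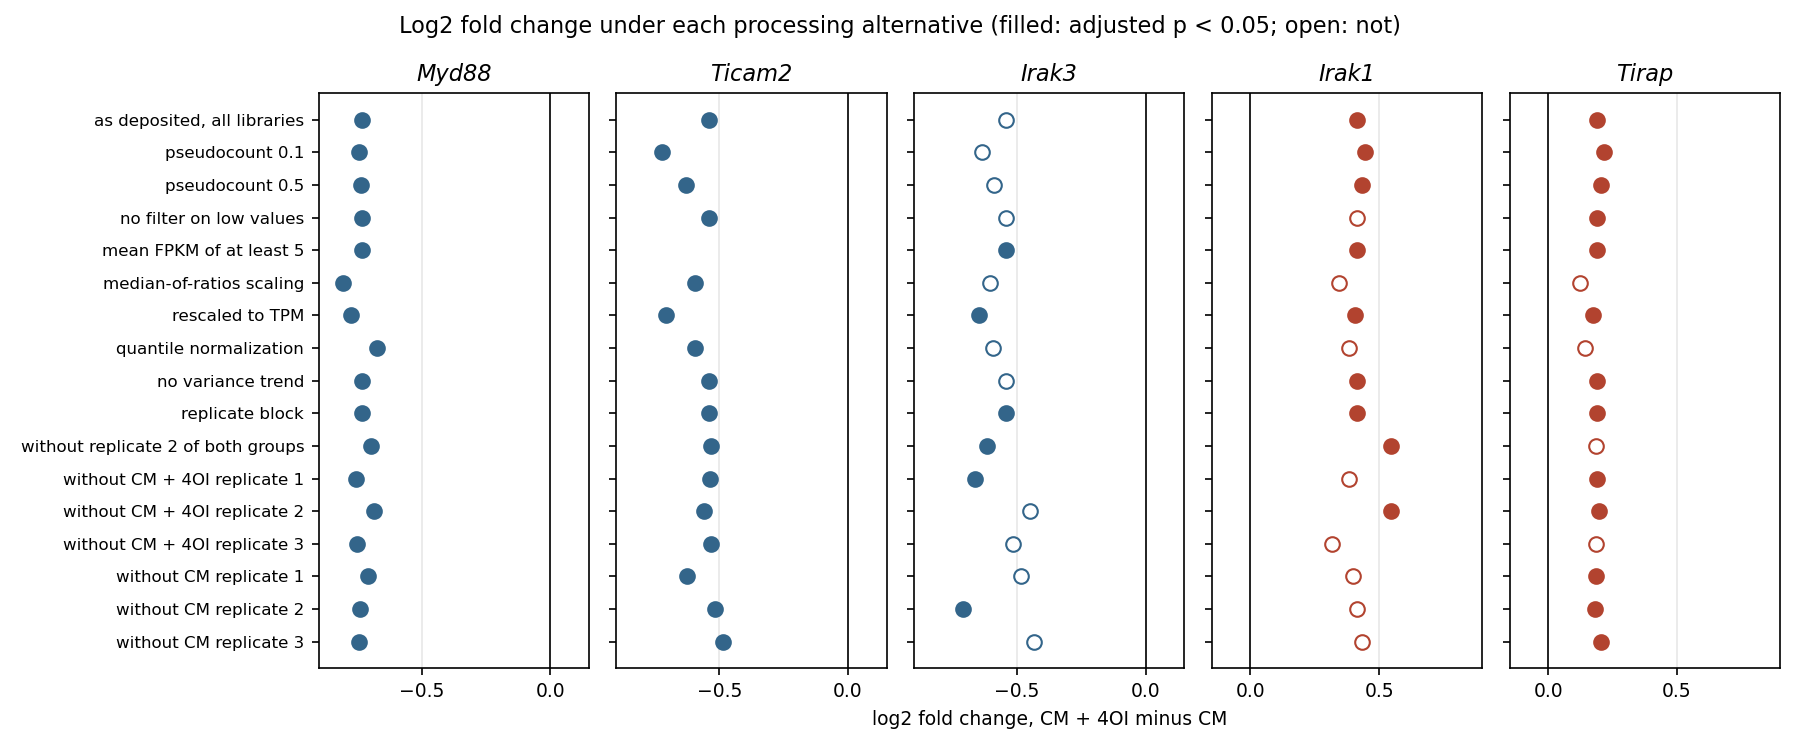
Log2 fold change (horizontal axes, CM + 4OI minus CM) of the genes furthest from 0 under the values as deposited and each of 16 processing alternatives (rows), filled where the adjusted p was under 0.05 and open where not. Myd88 and Ticam2 are filled wherever tested, Irak1 is open in 8 alternatives, Tirap in 4, and Irak3 is filled in 6; Ticam2 was not tested at a mean FPKM of at least 5.

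The genes whose log2(FPKM + 1) over the 6 libraries was most like that of Myd88, by Pearson's r, were Scimp, Tep1 and Il27, each with r = 0.999. Scimp, a transmembrane adaptor of immune cells, was at 4.08 ± 0.724 FPKM in CM + 4OI and 19.99 ± 0.831 FPKM in CM. Il27, a cytokine subunit, was at 1.04 ± 0.246 FPKM in CM + 4OI and 4.26 ± 0.168 FPKM in CM, and Tep1, a telomerase-associated protein, at 11.1 ± 0.326 FPKM in CM + 4OI and 14.45 ± 0.116 FPKM in CM. For Irak1 they were Lrrc42 (r = 0.989), Ech1 and Yod1 (r = 0.982 for both). These values describe 6 libraries that fall into 2 groups, so a high r mostly restates a difference between the groups.

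Other genes of the pathway are given from lists that do not overlap with the 10. For comparison with the counts of each list, 13.2% of all tested genes were called lower, 19.3% higher and 32.5% in either direction. Among TLRs and accessory proteins, 15 of 19 listed genes were tested, of which 8 were lower and 2 higher, with a median log2 fold change of -0.27. The gene of TLR9, a sensor of DNA, had 2.50, 1.94 and 2.14 FPKM with 4OI, against 11.6, 11.1 and 10.95 FPKM in CM (Tlr9, log2 fold change -1.94, limma adjusted p = 2.06e-05). Tlr2 and Tlr1, receptors of bacterial lipopeptides, were also lower, at log2 fold changes of -1.52 and -1.32, and Tlr3, a receptor of double-stranded RNA, at -1.33. The 2 called higher were Cd36, at a log2 fold change of 1.02 (limma adjusted p = 4.60e-04), and Tlr13, at 0.46 (limma adjusted p = 0.00183). Tlr4, the receptor that uses all 4 adaptors, had 5.89, 6.23 and 6.08 FPKM with 4OI, against 7.59, 5.59 and 8.69 FPKM in CM, and was not called (limma adjusted p = 0.281). Of 7 interleukin-1 family receptors, which use or oppose MyD88, 1 was tested: Il1rap, the shared co-receptor, was lower at 2.70 ± 0.135 FPKM in CM + 4OI and 3.78 ± 0.0402 FPKM in CM (limma adjusted p = 0.00284).

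Of 25 other components of the MyD88 and TRIF complexes, 24 were tested, of which 7 were lower and 2 higher, with a median log2 fold change of 0.01. The largest fall was that of Ikbke, a kinase that acts on interferon regulatory factors, at a log2 fold change of -1.56. Irf7, one of those factors, and Peli1, a ubiquitin ligase that acts on IRAK1, were lower at -0.93 and -0.83. Ikbkg, the regulatory subunit of the IkB kinase complex, had 10.5, 21.2 and 12.8 FPKM with 4OI, against 5.32, 5.20 and 4.99 FPKM in CM (log2 fold change 1.30, limma adjusted p = 0.00622). Overlaps of its exons with other genes were not examined. The other gene called higher was Ripk1, a kinase bound by TRIF, at 13.6 ± 0.418 FPKM in CM + 4OI and 12.02 ± 0.506 FPKM in CM (limma adjusted p = 0.0387). Ikbkg stayed called in 16 of 16 alternatives and Ripk1 in 4 of 16. The call of Ripk1 was lost when any single library or both replicate 2 libraries were left out, with each of the 3 other scalings, without a variance trend and without a filter, at adjusted p up to 0.212. Irak2, the further IRAK family kinase, had 9.55, 9.23 and 14.6 FPKM with 4OI, against 16.7, 14.6 and 24.8 FPKM in CM, and was not called (log2 fold change -0.69, limma adjusted p = 0.0648). It was lower in 3 of 3 pairs of the same number, and with the replicate number as a block its limma adjusted p was 8.61e-04 and 8 genes of this list were lower. Irak2 also passed without CM + 4OI replicate 3 (0.0363) and without CM replicate 2 (0.0495), and in none of the other 13 alternatives, where its adjusted p reached 0.174.

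Of 19 inhibitors of TLR signalling, 18 were tested, of which 6 were lower and 3 higher, with a median log2 fold change of 0.01. Socs1, which inhibits cytokine signalling and is reported to promote the breakdown of TIRAP, had 2.04, 1.22 and 1.51 FPKM with 4OI, against 6.35, 5.35 and 7.01 FPKM in CM (log2 fold change -1.49, limma adjusted p = 4.55e-04). The IkB genes Nfkbie and Nfkbia, whose proteins hold NF-kB in the cytoplasm, were lower at log2 fold changes of -0.75 and -0.57. Dusp1, a phosphatase of MAP kinases, rose, with 34.0, 41.6 and 40.2 FPKM with 4OI, against 22.6, 26.5 and 29.1 FPKM in CM (log2 fold change 0.55, limma adjusted p = 0.0110).

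**Figure D4:**
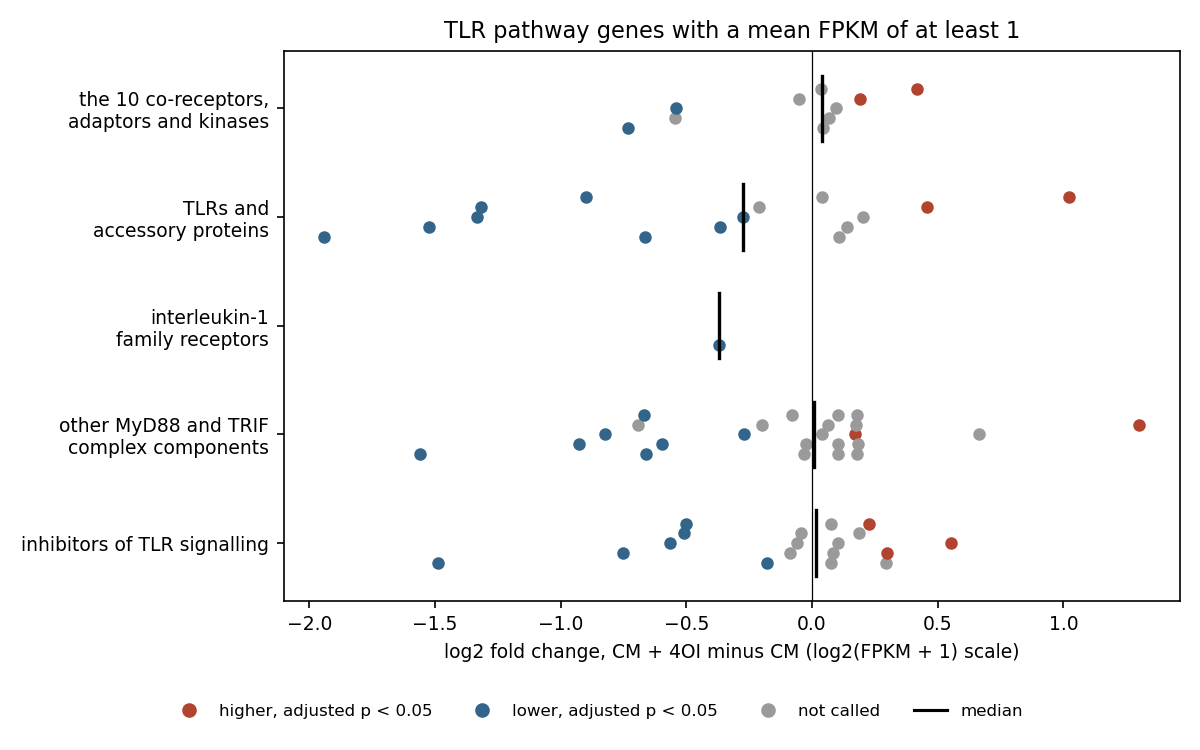
Log2 fold change (horizontal axis, CM + 4OI minus CM) of each tested gene in the 10-gene group and in the other lists of the TLR pathway (rows), red where called higher, blue where called lower, grey where not called, with the median as a black bar. The TLRs and accessory proteins have a median of -0.27, and the 1 tested interleukin-1 family receptor lies at -0.37. The medians of the 10 genes, of the other complex components and of the inhibitors lie at 0.04, 0.01 and 0.01.

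The libraries held an estimated 17.99 to 25.3 M fragments (M, mega), so that a transcript of 1000 nt gave 17.99 to 25.3 fragments per FPKM. All 10 macrophage markers were present, with Lyz2 at 8185 to 9018 FPKM, and 4 of them (Mertk, Fcgr1, C1qa and Mrc1) were lower with 4OI. This list includes Cd14, itself described above. Itgam appears under separate gene IDs, with log2 fold changes of 0.29 and -0.49, neither called. Summed fibroblast markers were at 9.04, 33.5 and 9.07 FPKM with 4OI, against 10.2, 57.2 and 6.77 FPKM in CM, so replicate 2 was highest in both groups, the replicate in which Irak3 was lowest. Without replicate 2 of both groups the log2 fold changes of Irak3, Irak1, Myd88 and Ticam2 were -0.62, 0.55, -0.70 and -0.53, all called, and that of Tirap was 0.19 and not called (limma adjusted p = 0.108). Summed neutrophil markers were at 58.9 to 73.3 FPKM with 4OI and 55.1 to 92.9 FPKM in CM, acinar markers at 8.47 to 15.8 FPKM with 4OI and 7.64 to 12.7 FPKM in CM, and dendritic cell markers at 43.2 to 66.9 FPKM with 4OI and 38.5 to 63.6 FPKM in CM. Summed B cell markers were at 6.05 to 10.5 FPKM with 4OI and 4.27 to 5.99 FPKM in CM, and T and NK cell markers at 3.94 to 5.14 FPKM with 4OI and 4.16 to 4.30 FPKM in CM. Over all libraries the most abundant marker of each list was Col1a1 for fibroblasts (2.93 to 28.99 FPKM), S100a9 for neutrophils (23.6 to 43.3 FPKM), Ctrb1 for acinar cells (1.73 to 4.70 FPKM), Itgax for dendritic cells (37.6 to 66.3 FPKM), Ighm for B cells (3.55 to 10.03 FPKM) and Cd4 for T cells (3.94 to 5.01 FPKM). A mean of 1 FPKM was reached by 4 of 8 fibroblast, 4 of 8 neutrophil, 5 of 10 acinar, 1 of 7 dendritic cell, 1 of 6 B cell and 1 of 8 T and NK cell markers. Of the markers of other cell types, 2 were called higher with 4OI. Ighm was at 8.09 ± 2.39 FPKM in CM + 4OI and 4.30 ± 0.886 FPKM in CM (limma adjusted p = 0.0408), and the acinar marker Cela1 at 2.28 ± 0.266 FPKM in CM + 4OI and 1.66 ± 0.0592 FPKM in CM (limma adjusted p = 0.0278). Listed at 0 in every library were Cd3d, Cd8a, Ncr1, Gzma, the neutrophil marker Ly6g and the dendritic cell marker Flt3. The part of these cells in the results was not tested.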

How the data were processed

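RNA of 3 CM + 4OI and 3 CM cultures, labelled as biological replicates, was sequenced as 150 nt paired-end reads. The table deposited by the authors gives FPKM for 55335 genes, one sample per column. FastQC 0.11.2 and mm10 are named in the submitters' processing notes. The aligner, quantifier, annotation and strand setting are not given in any source used here. Gene coordinates are from GENCODE M21, which holds 99.7% of the gene IDs and uses the same assembly.

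CM + 4OI was compared with CM by limma 3.58.1 in R 4.3.3, with a variance trend, on log2(FPKM + 1) of the 10468 genes whose mean reached 1 FPKM. Tests were two-sided, Benjamini-Hochberg adjusted over all of these, and called under 0.05. The scale understates changes of low genes. Ratios and percentages are of mean FPKM. Fragment counts were not recovered. Depth was estimated from the commonest step of FPKM times length, over genes with 1 transcript of at least 500 nt. The fit was tested on simulated data. Other steps used Python 3.11.15 with numpy 2.4.6, pandas 2.3.3 and matplotlib 3.10.9.

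Genes named beside the 10 are, per list, up to 4 called genes with the largest absolute log2 fold change, with Tlr4, Tlr2, Tlr3 and Irak2 whatever their result. For the most changed gene in each direction, the 3 genes of highest r are named. Genes overlapping the exons by over 5%, and Cd36, Tlr13, Ripk1, Cela1, Mertk, Fcgr1, C1qa, Mrc1 and Itgam, were added after their values were seen. The 10 genes, lists and motifs were chosen with earlier results of these data known.

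Both groups are numbered 1 to 3, and no label explains the numbers. Deviations from the group means had r = 0.344, 0.427 and 0.185 between samples of numbers 1, 2 and 3, and at most 0.0262 between different numbers. Deviations sum to 0 within each group, so the low r between different numbers follows in part from the higher r between the same numbers. The numbers may thus pair the samples, judged from the data only. The main fit left the number out, and the fit with the number as a block was an alternative.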

Additional observations from a re-analysis of the deposited data

How the results depend on the processing

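Myd88 kept its direction and call in 16 of 16 alternatives and Ticam2 in 15 of 15. At a mean FPKM of at least 5, Ticam2 was not tested. Of the 10 genes 2 or 3 were lower in each alternative. The number higher was 2 as deposited, 0 with median-of-ratios scaling or quantile normalization, 1 without a filter on low values or without replicate 2 of both groups, and 0 to 2 when 1 library was left out. With the replicate number as a block the numbers were 2 higher and 3 lower, with Irak3 as the added gene, and the call of no other of the 10 changed. Genes called higher over the whole table numbered 2020, 1110 without replicate 2 of both groups and 1302 to 1868 when 1 library was left out, the lowest without CM + 4OI replicate 2; with the block, 2336 were higher and 1523 lower.

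Among genes not called, the log2 fold change changed sign with median-of-ratios scaling for Cd14 (-0.0078), Ly96 (-0.0235) and Irak4 (-0.0304), with quantile normalization for Ly96 (-0.0065) and Irak4 (-0.0107), without CM replicate 1 for Ly96 (-0.0713, and 0.174 at most when 1 library was left out), and without replicate 2 of both groups for Traf6 (0.0018). The cause was not tested. Of the other lists, inhibitors called lower numbered 6 as deposited. They numbered 5 with the block, without a filter, without replicate 2 of both groups or when any 1 library was left out. At a mean FPKM of at least 5, where fewer genes were tested, 2 inhibitors were lower. Inhibitors called higher numbered 1 without replicate 2 of both groups. Other MyD88 and TRIF complex components called higher numbered 2 as deposited and 1 in 12 of 16 alternatives. If all reads came from the longest annotated transcript, Ly96 rested on 104 to 177 fragments per library and Ticam2 on 190.1 to 362, the lowest of the 10 genes, so counting error weighs most on these.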
